A study of Homo sapiens with 22 samples.

Results

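MV-4-11 cells that had been in 1 µM BRM014 for 72 h (2 libraries) were compared with MV-4-11 cells that had been in 1 µM BRM014 for 24 h (2 libraries). These are 4 of the 22 RNA-seq libraries of the series, taken by their labelled line, compound and time. MV-4-11 is a human acute myeloid leukaemia line that carries a KMT2A fusion and an activating FLT3 duplication, and its libraries bear the marker label WT. Both groups had received BRM014, a compound that blocks the motor subunits SMARCA4 and SMARCA2 of SWI/SNF complexes. Levels in 2 MV-4-11 libraries treated with the solvent DMSO are printed beside them as background. The same pair of times in MOLM-13 and THP-1, which are further acute myeloid leukaemia lines with KMT2A fusions, serves as the comparison between lines. MOLM-13 is likewise a FLT3-mutant line, and THP-1 is not. The labels do not say whether these DMSO cells were kept for 24 h or 72 h, so a longer time in BRM014 and a longer time in culture cannot be told apart. They do not say that the replicates were separate cultures either, so the p-values rest on a spread that may be technical.

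All 28063 gene symbols counted in the files entered the comparison. Of these, 16794 passed the filter on low counts and were tested, and 11269 were not. The 72 h libraries held 17187766 and 19259772 reads in genes, and the 24 h libraries held 18501656 and 21052019, inside the range of 15893489 to 21565666 over the series. The share of counted reads outside annotated genes was 13.1% and 13.5% at 72 h and 12.03% at 24 h in both libraries, so the groups did not overlap in this measure, and its part in the results was not tested. Replicates correlated at r = 0.989 at 72 h and r = 0.988 at 24 h across genes, on log2 CPM (reads of a gene relative to the effective library size). Their counts still differed beyond counting error, by a chi-square of 3.15 at 72 h and 6.78 at 24 h for each degree of freedom. The markers of the line were present at both times, among them CD33, CD68, FLT3, LYZ, CEBPA and PTPRC. Of 16 such markers 7 were called higher at 72 h (43.8%) and 6 lower (37.5%), against 18.6% and 16.9% of all genes tested. Not all were well expressed or steady. CSF2RA had 0.84 and 0.96 CPM at 24 h, and MPO had the lowest log2 fold change of the list, -2.23. Erythroid, megakaryocyte and lymphoid markers were scarce. The 22 erythroid and megakaryocyte markers in the files, 6 of them tested, summed to 11.4 and 10.4 CPM at 72 h and 13.6 and 13.7 CPM at 24 h. The 21 lymphoid markers in the files, 15 of them tested, summed to 6.90 and 7.29 CPM at 72 h and 6.24 and 9.35 CPM at 24 h. The 16 epithelial and fibroblast markers in the files, 10 of them tested, summed to 53.4 and 54.0 CPM at 72 h and 14.1 and 13.5 CPM at 24 h. Most of that sum came from LUM (lumican, a matrix proteoglycan), MUC1 and COL1A1, while EPCAM, KRT19, COL1A2 and COL3A1 were not among the tested genes. The part of these markers in the results was not tested.

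SWI/SNF complexes use the energy of ATP to move nucleosomes, and in myeloid leukaemia they keep enhancers open that hold up MYC, PU.1 (gene SPI1) and the immature state of the cells. Monocytes mature under PU.1 and C/EBP factors, and in doing so they gain lysosomes, integrins, complement and inflammatory mediators while cell division slows. Sterol and fatty acid synthesis is run by the SREBP transcription factors, and antiviral genes by STAT and IRF factors, which bind the interferon-stimulated response element.

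Between 24 h and 72 h of BRM014 the RNA of MV-4-11 cells changed widely. At an adjusted p under 0.05 (edgeR quasi-likelihood F test, Benjamini-Hochberg over all genes tested), 5949 genes were called, or 35.4% of those tested. Of these, 3119 genes (18.6%) were higher at 72 h and 2830 (16.9%) were lower. At least 2-fold changes were less even, with 1208 called genes higher (7.19%) and 426 lower (2.54%). The median log2 fold change over the 15773 tested genes with a read in the 4 libraries was 0.03. The 2 groups of libraries did not overlap for 66.3% of all genes tested, so a gap between groups is common here and is read only beside the test. With 1 of the 4 libraries left out in turn, the calls numbered 2430 to 2495 higher and 2104 to 2270 lower.

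**Figure D1:**
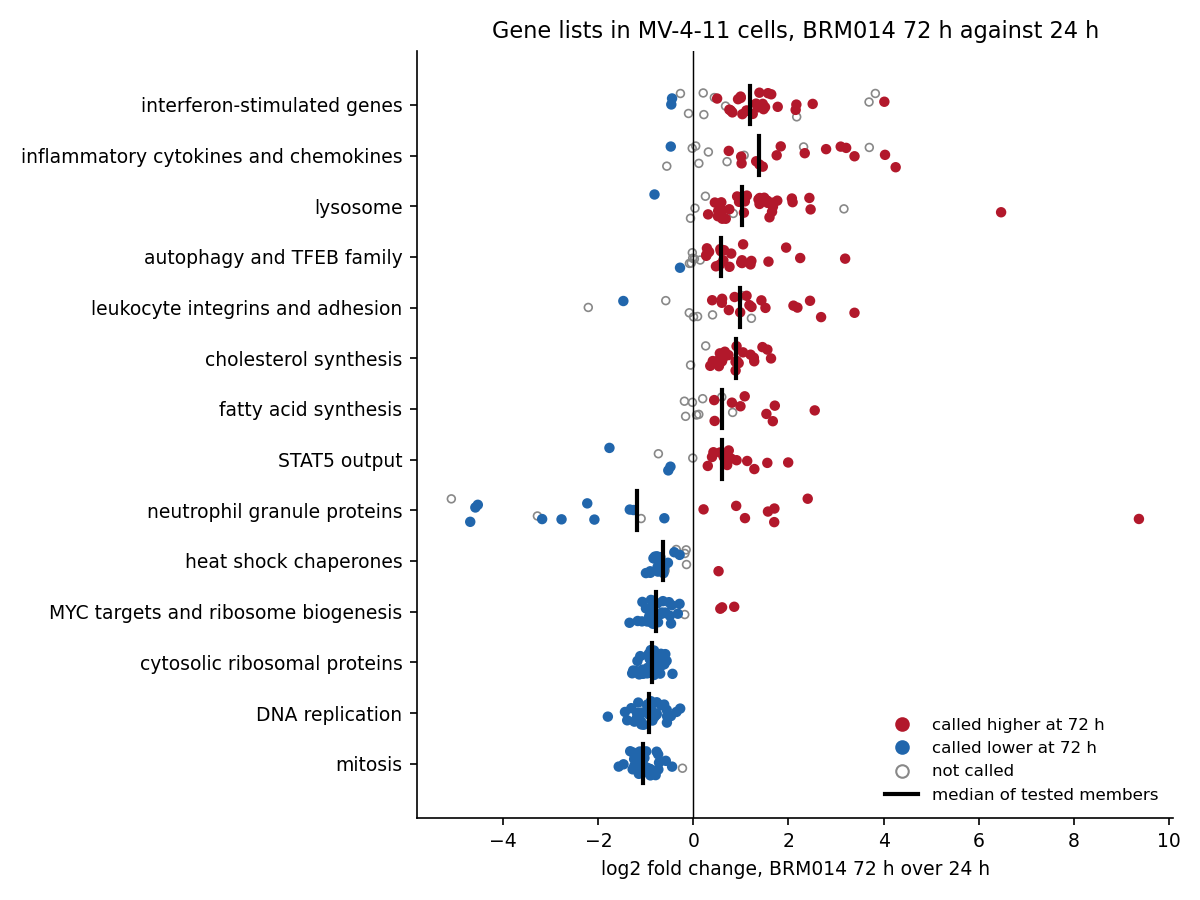
Log2 fold change of BRM014 72 h over 24 h in MV-4-11 cells (x axis) for the tested members of 14 gene lists (rows) with at least 1 read in the 4 libraries. Each point is a gene, red if called higher, blue if called lower and open if not called, and black bars are medians over the tested members; the interferon list sits at a median of 1.19 and the mitosis list at -1.06. Fitted values of genes with no read in a group, such as LCN2, depend on the prior count.

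The genes of cholesterol synthesis were higher at 72 h almost as a block. Of 23 tested members 21 were called higher and none lower, with a median log2 fold change of 0.89 and values between -0.06 and 1.63. The members not called were PMVK and HSD17B7. The 24 list members in the files summed to 3309 and 3355 CPM at 72 h, 1830 and 1836 CPM at 24 h, and 3338 and 3411 CPM in DMSO. The 24 h libraries were thus the low ones, and the 72 h libraries lay close to DMSO. STARD4, a sterol carrier, had 167 and 166 CPM at 72 h, 56.0 and 51.2 CPM at 24 h, and 134 and 133 CPM in DMSO. It rose by 1.63 ± 0.12 on the log2 scale (SE, n = 2 each; adjusted p = 1.12e-09), and both 72 h libraries lay above all others. MVD, which makes isopentenyl diphosphate, had 129 and 136 CPM at 72 h, 44.8 and 45.3 CPM at 24 h, and 65.2 and 65.6 CPM in DMSO, a log2 fold change of 1.56 ± 0.12 (adjusted p = 3.61e-09). For both genes the times were separated by far more than the spread within a group.

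Both of the next genes lie outside the naming rule and were picked after their values were seen. HMGCS1, the first committed step, had 183 and 178 CPM at 72 h and 90.5 and 84.9 CPM at 24 h, with 210 and 206 CPM in DMSO. SREBF2, which encodes the SREBP of the sterol genes, had 496 and 509 CPM at 72 h, 266 and 276 CPM at 24 h and 464 and 459 CPM in DMSO (log2 fold change 0.89 ± 0.06).

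**Figure D2:**
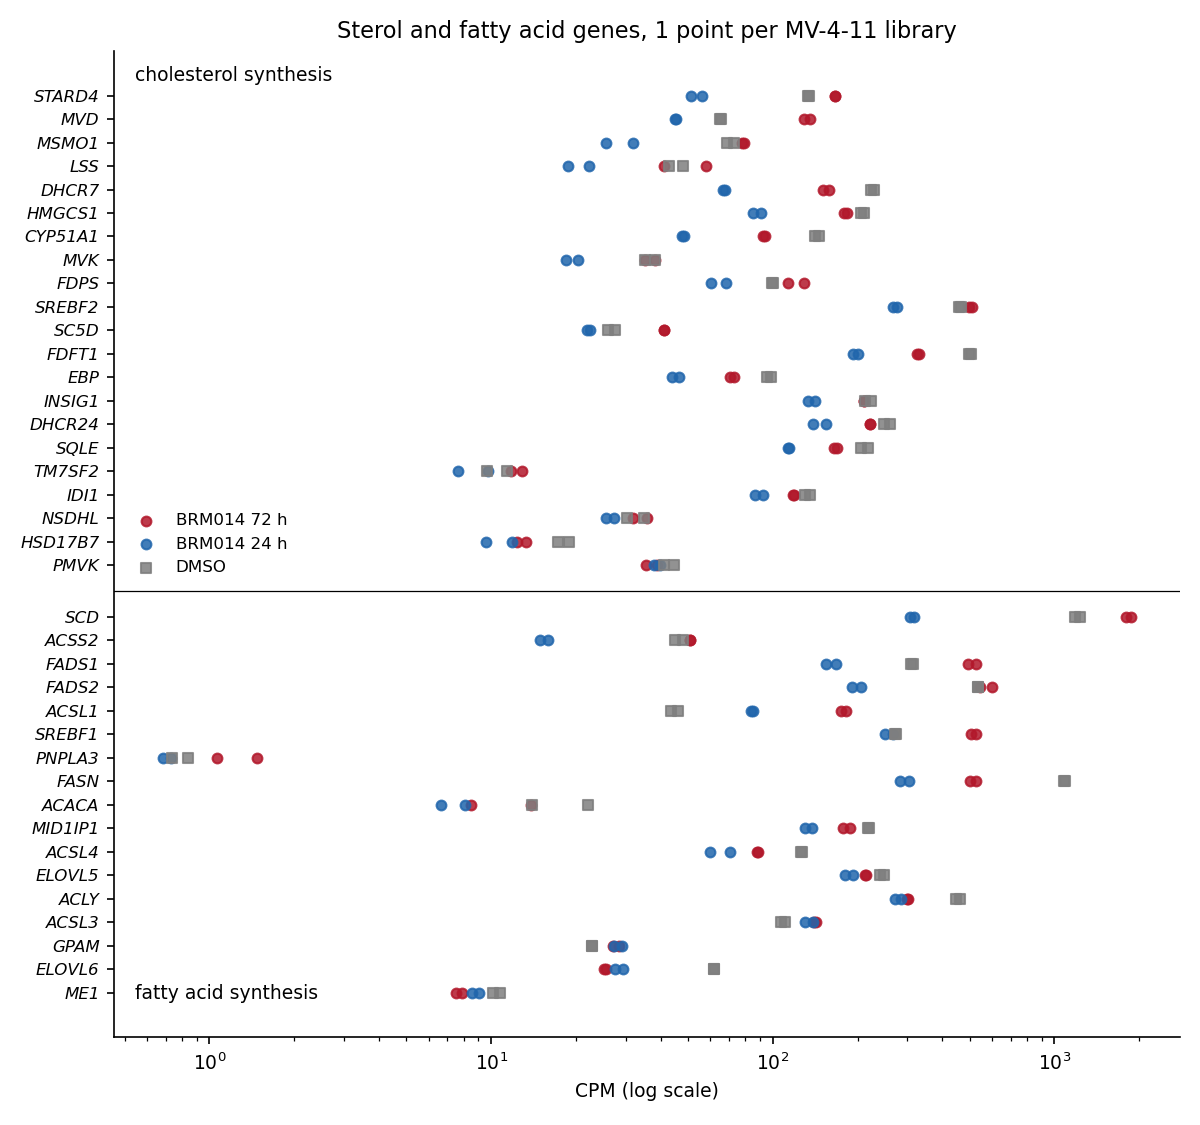
CPM (x axis, log scale) of 21 of the 23 tested cholesterol synthesis genes and the 17 tested fatty acid synthesis genes (rows, each block sorted by log2 fold change), with 1 point per MV-4-11 library: red circles BRM014 72 h, blue circles BRM014 24 h, grey squares DMSO. SCD stands out, with 1788 and 1875 CPM at 72 h, against 318 and 307 CPM at 24 h.

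The fatty acid genes moved in the same direction in part. Of 17 tested members 9 were called higher and none lower, with a median of 0.60. SCD, the stearoyl-CoA desaturase that makes oleate (chr10:100347124-100364834, plus strand, GENCODE v29 on GRCh38), had 1788 and 1875 CPM at 72 h, 318 and 307 CPM at 24 h, and 1188 and 1231 CPM in DMSO. It rose by 2.55 ± 0.07 (adjusted p = 2.85e-15), one of the most abundant genes with a change of that size. ACSS2, which makes acetyl-CoA from acetate, had 50.6 CPM in both libraries at 72 h, 14.9 and 15.97 CPM at 24 h, and 45.1 and 48.1 CPM in DMSO (log2 fold change 1.71 ± 0.10). Among the members not called, ACLY had 303 and 299 CPM at 72 h and 271 and 285 CPM at 24 h, and ELOVL6 had 25.6 and 25.2 CPM at 72 h and 29.4 and 27.6 CPM at 24 h. The block was thus uneven, with desaturases and SREBF1 (the SREBP of fatty acid genes, picked after its values were seen) among the called genes and the elongases ELOVL5 and ELOVL6 not. Of 24 tested PPAR and LXR lipid genes, 15 were called higher and 2 lower. PLIN2, the coat protein of lipid droplets, had 504 CPM in both libraries at 72 h, 78.4 and 74.8 CPM at 24 h, and 90.3 and 103 CPM in DMSO, a log2 fold change of 2.72 ± 0.09. The members called lower were FABP5, with a log2 fold change of -1.53 ± 0.12, and LPL (lipoprotein lipase), with -1.23 ± 0.08.

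For sequence context, the 250 bases before the transcription start were read from RefSeq promoters on GRCh38.p14 for genes with a single start in that table, which 8823 of the genes tested have. The sterol response element was searched as TCACNCCAC on both strands, and of 14 sterol genes with a window only SREBF2 (7.14%) holds it, against 0.873% of the tested genes with a window. The CCAAT box, searched as CCAAT on both strands, occurs in 12 of these 14 (85.7%), against 35.2% of the tested genes. The SREBF2 window (chr22:41832855-41833104, plus strand) is shown with the match in capitals because it is the one member that holds the full element, 133 bases before its start.
SREBF2: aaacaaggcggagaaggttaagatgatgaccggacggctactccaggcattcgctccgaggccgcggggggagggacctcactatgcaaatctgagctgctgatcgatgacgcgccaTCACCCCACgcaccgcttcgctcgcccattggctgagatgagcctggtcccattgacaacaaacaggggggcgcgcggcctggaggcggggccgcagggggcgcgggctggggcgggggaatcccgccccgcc

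The sterol rise was not shared by the other lines. For MOLM-13, 43.5% of all genes were called between the same times, 20.8% higher and 22.7% lower. For THP-1, 32.7% were called, 16.2% higher and 16.5% lower. Of the 23 sterol genes MOLM-13 had 2 called higher and 14 lower (median -0.38), and THP-1 had none called higher and 18 lower (median -0.68). The difference between lines was itself tested as an interaction. The MV-4-11 change lay above the MOLM-13 change for 20 of 23 members and above the THP-1 change for 21, and below it for none in either test. Over all genes, 21.6% differed between MV-4-11 and MOLM-13 and 13.1% lay above, while 21.9% differed between MV-4-11 and THP-1 and 12.3% lay above. For SCD the MV-4-11 change exceeded that of MOLM-13 by 2.94 ± 0.10 (adjusted p = 1.64e-13) and that of THP-1 by 3.31 ± 0.10 (adjusted p = 2.48e-14). For fatty acid synthesis the MV-4-11 change was called above MOLM-13 for 15 of 17 members and above THP-1 for 11.

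**Figure D3:**
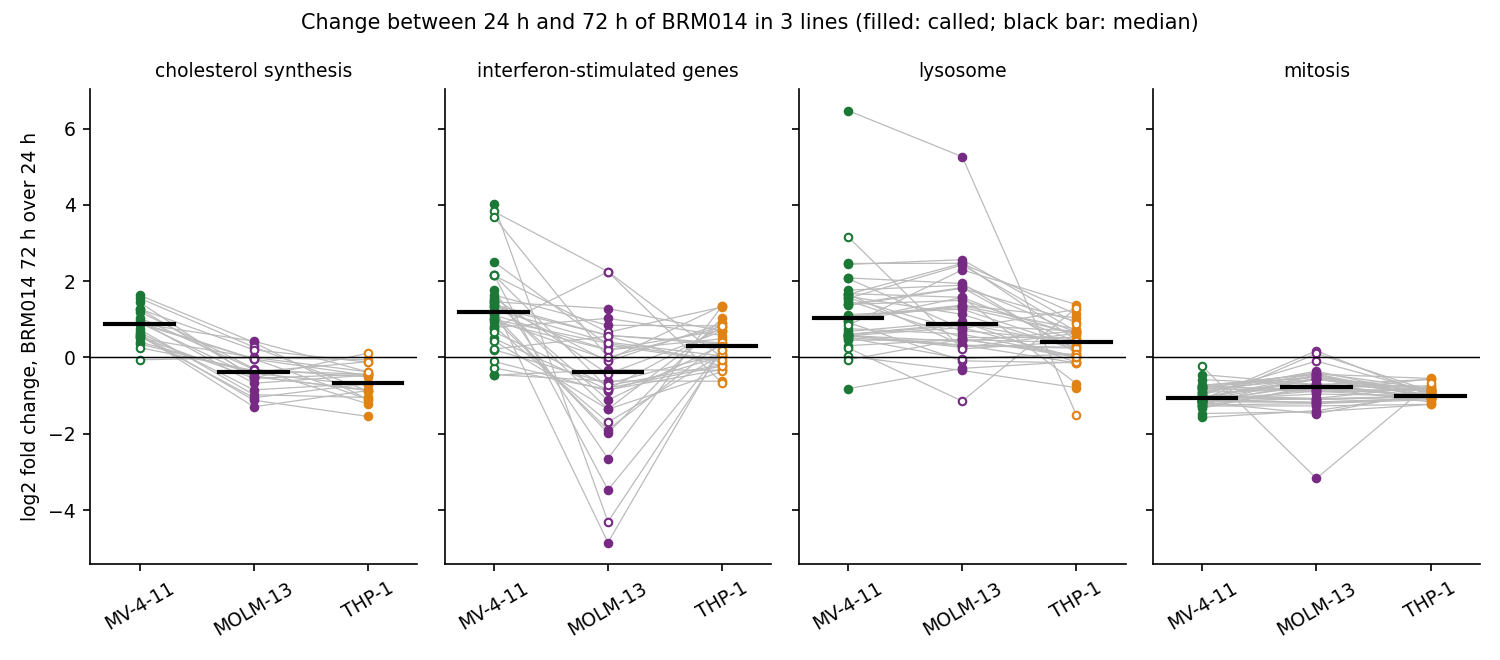
Log2 fold change of BRM014 72 h over 24 h (y axis) in MV-4-11, MOLM-13 and THP-1 cells for the tested members of 4 lists, with each gene joined by a grey line, filled points called, open points not called and black bars at the median. Cholesterol synthesis has medians of 0.89, -0.38 and -0.68 in that order of lines, while the mitosis genes have -1.06, -0.76 and -1.001.

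Interferon-stimulated genes were the second group that rose in MV-4-11. Of 36 tested members 25 were called higher and 2 lower, with a median log2 fold change of 1.19, and the summed level was 1211 and 1192 CPM at 72 h, 708 and 709 CPM at 24 h and 541 and 537 CPM in DMSO. Many members stood at low levels, and 19 of the 25 called higher reached 5 CPM at 72 h. EPSTI1, named as the largest rise of the list, had 1.81 and 1.57 CPM at 72 h, 0.21 and 0 CPM at 24 h, and 0.28 and 0.34 CPM in DMSO. Its log2 fold change of 4.02 ± 0.60 (adjusted p = 2.33e-05) became 7.98 without the first 24 h library and 2.97 without the second, so its size is poorly fixed. IFITM3, a membrane protein that blocks virus entry, had 1.13 and 1.42 CPM at 72 h, 0.21 and 0.23 CPM at 24 h and 0.45 and 0.39 CPM in DMSO (2.51 ± 0.56). Reads of IFITM3 and its near-identical neighbour IFITM2 may be exchanged.

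At firmer levels, IFI6 had 61.7 and 58.0 CPM at 72 h, 13.5 and 13.2 CPM at 24 h and 17.4 and 18.4 CPM in DMSO (log2 fold change 2.17 ± 0.16; picked after its values were seen). IRF9, the DNA-binding subunit of the interferon-induced factor ISGF3, had 69.0 and 68.4 CPM at 72 h, 26.3 and 26.1 CPM at 24 h and 12.8 CPM in both DMSO libraries (1.39 ± 0.12; picked likewise). In both genes all 72 h libraries lay above all 24 h libraries. The members called lower were BST2, which tethers budding virus, with 7.07 and 6.94 CPM at 72 h and 9.07 and 10.2 CPM at 24 h, and IFITM2, with 11.0 and 8.86 CPM at 72 h and 15.3 and 11.9 CPM at 24 h. Both of these calls were lost when 1 library was left out, with adjusted p between 0.0984 and 0.2002 for BST2 without the second 24 h or either 72 h library, and 0.369 and 0.331 for IFITM2 without the first 24 h or the second 72 h library. Class I antigen presentation genes also rose in MV-4-11. Of 16 tested members 8 were called higher and 1 lower, CALR (calreticulin), which had 1111 and 1195 CPM at 72 h and 1484 and 1499 CPM at 24 h. HLA-B had 1132 and 1122 CPM at 72 h, 372 and 373 CPM at 24 h, and 947 and 959 CPM in DMSO (log2 fold change 1.598 ± 0.15). It overlaps HLA-C on the same strand in the annotation, and reads of the HLA class I genes may be exchanged. Of 7 tested class II genes only CD74 was called, and nearly all class II reads were its own, so the other members could hardly be assessed. CD74, the invariant chain, fell by 2.55 ± 0.11 on the log2 scale, to 7.64 and 8.96 CPM at 72 h, against 48.9 and 48.5 CPM at 24 h and 223 and 225 CPM in DMSO.

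The interferon-stimulated response element was searched on both strands as GAAA, any 2 bases and GAAA again. It occurs in 14 of the 19 list members with a single promoter window (73.7%), against 2.65% of the tested genes with a window. The windows of the 3 called members with the largest rises among those that hold it are shown with every match in capitals, because the list moved together. EPSTI1 lies at chr13:42992242-42992491, IFITM3 at chr11:320861-321110 and IFI6 at chr1:27672193-27672442, all on the minus strand. A match is a description of the letters and not evidence of binding.
EPSTI1: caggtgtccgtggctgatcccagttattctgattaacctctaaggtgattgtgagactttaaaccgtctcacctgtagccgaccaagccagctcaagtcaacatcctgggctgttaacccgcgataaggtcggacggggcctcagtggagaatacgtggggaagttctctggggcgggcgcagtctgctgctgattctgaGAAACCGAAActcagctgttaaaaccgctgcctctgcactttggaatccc
IFITM3: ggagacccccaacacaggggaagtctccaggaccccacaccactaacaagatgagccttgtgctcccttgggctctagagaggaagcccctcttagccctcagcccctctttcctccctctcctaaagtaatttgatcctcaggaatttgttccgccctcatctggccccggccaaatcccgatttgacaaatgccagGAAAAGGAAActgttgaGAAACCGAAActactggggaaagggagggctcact
IFI6: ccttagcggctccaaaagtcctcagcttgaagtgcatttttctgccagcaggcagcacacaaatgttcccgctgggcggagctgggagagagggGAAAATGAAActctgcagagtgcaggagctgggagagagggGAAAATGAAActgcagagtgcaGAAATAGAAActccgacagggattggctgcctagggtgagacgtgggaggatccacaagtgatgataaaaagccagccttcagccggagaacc

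Across the other lines, more interferon list members were called lower than higher in MOLM-13, while THP-1 shared the rise in part. MOLM-13 had 5 of 36 members called higher and 14 lower (median -0.38), and THP-1 had 13 higher and 3 lower (median 0.31). The MV-4-11 change was called above the MOLM-13 change for 23 members and above the THP-1 change for 11, and below for none. Over all genes tested, 13.1% and 12.3% lay above. For 25 of the 36 members the difference from THP-1 was not called. Class I presentation had more members called higher than lower in all 3 lines. MOLM-13 had 6 of 16 class I members called higher and 2 lower (median 0.53), and THP-1 had 4 higher and 1 lower (median 0.22). The MV-4-11 class I change was called above the MOLM-13 change for 2 of 16 members, near the 13.1% over all genes tested, and below for none. It was called above the THP-1 change for 7 and below for 1, against 12.3% and 9.6% of all genes tested.

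The largest rises were ranked among called genes without overlap between groups and with a mean of at least 5 CPM at 72 h. There LCNL1, CHI3L1 and PTGDS had the largest fitted rises. CHI3L1, a chitinase-like glycoprotein secreted by macrophages (chr1:203178931-203186749, minus strand), had 152 and 162 CPM at 72 h, 0.16 and 0.23 CPM at 24 h and 2.01 and 1.37 CPM in DMSO. It rose by 9.61 ± 0.16 on the log2 scale (adjusted p = 2.24e-19), and its 24 h libraries held 3 and 5 reads. PTGDS, a prostaglandin D synthase, had 103 and 104 CPM at 72 h, 0.52 and 0.32 CPM at 24 h and 0.34 and 0.10 CPM in DMSO (7.94 ± 0.26). LCNL1, a lipocalin-like gene that begins just downstream of PTGDS on the same strand, had 225 and 222 reads at 72 h and none in the 24 h and DMSO libraries, which is at least 163-fold higher than the 3 reads that a count of 0 over the 24 h group allows.

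C3, the central complement component (chr19:6677704-6730562, minus strand), had 587 and 567 CPM at 72 h, 17.5 and 18.8 CPM at 24 h and 12.8 and 13.1 CPM in DMSO, a log2 fold change of 4.99 ± 0.11 (adjusted p = 2.02e-17). It overlaps GPR108 on the same strand in the annotation. MEFV, which encodes pyrin, had 57.1 and 57.0 CPM at 72 h, 1.94 and 2.97 CPM at 24 h and 2.18 and 1.96 CPM in DMSO (4.52 ± 0.14). FCN1, a lectin of monocytes, had 26.8 and 25.8 CPM at 72 h, 0.37 and 0.91 CPM at 24 h and 1.399 and 1.76 CPM in DMSO (5.32 ± 0.44, and 6.14 without the second 24 h library). In these 3 genes the DMSO libraries stood much nearer to the 24 h libraries than to the 72 h libraries. Between 24 h and DMSO, FCN1 was still called lower at 24 h (log2 fold change -1.27) and C3 higher (0.49). CD300A, an inhibitory receptor of myeloid cells (chr17:74466399-74484796, plus strand), had another pattern, with 29.5 and 28.5 CPM at 72 h, 0.63 and 1.14 CPM at 24 h and 56.2 and 63.6 CPM in DMSO (4.997 ± 0.25, adjusted p = 4.61e-12). LRRC25, a leucine-rich repeat membrane protein, shared it, with 6.22 and 3.9999 CPM at 72 h, 0.16 and 0.05 CPM at 24 h and 3.81 and 3.38 CPM in DMSO, although its fold change of 5.61 ± 0.48 moved between 4.96 and 6.61 when 1 of the 24 h libraries was left out. The other genes among the 12 largest rises under that filter were SLAMF7, NALT1, TGM3 and RHBDF1, all under 22 CPM at 72 h. Their log2 fold changes were 5.41, 4.90, 4.72 and 4.43.

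**Figure D4:**
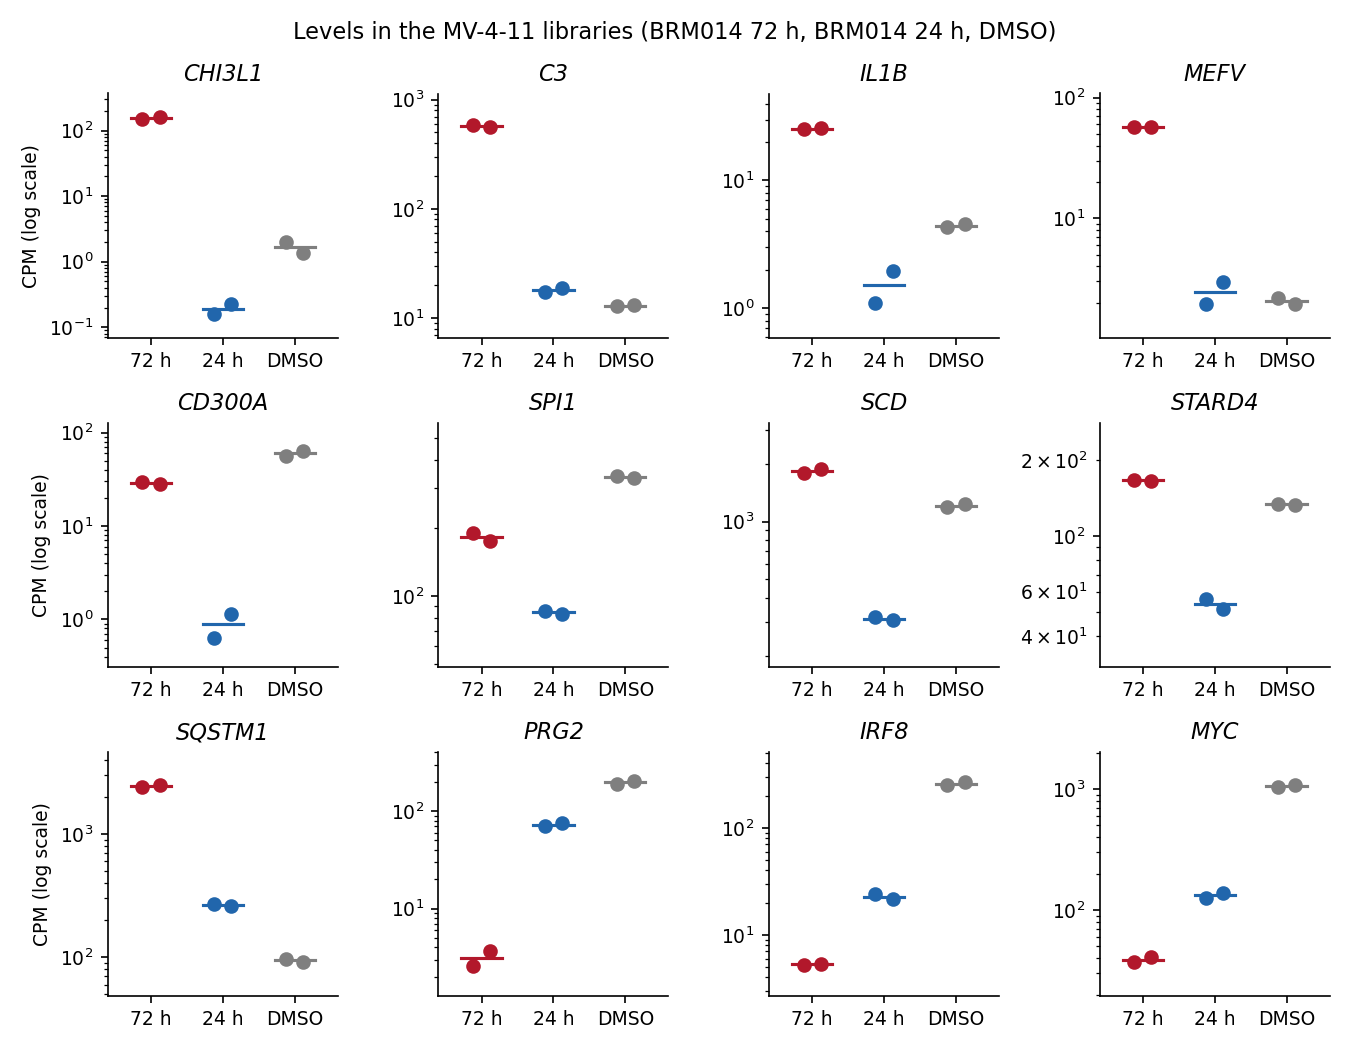
CPM (y axis, log scale, a separate range in each panel) of 12 named genes in the MV-4-11 libraries, with points for the 2 libraries and a bar for the mean at BRM014 72 h (red), BRM014 24 h (blue) and DMSO (grey). CD300A, SPI1, SCD and STARD4 are lowest at 24 h, SQSTM1 steps down across 72 h, 24 h and DMSO, and PRG2, IRF8 and MYC step up in the same order.

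Of 25 tested cytokine, chemokine and related genes 15 were called higher and 1 lower, TNFSF13B, with a median log2 fold change of 1.39. The TNFSF13B call was lost without either 24 h library or without the second 72 h library (adjusted p = 0.0783, 0.0992 and 0.291). IL1B had 25.2 and 25.6 CPM at 72 h, 1.10 and 1.96 CPM at 24 h and 4.31 and 4.55 CPM in DMSO, a log2 fold change of 4.03 ± 0.47 (adjusted p = 8.10e-07). IL1A had 3.05 and 2.78 CPM at 72 h, 0.16 and 0.14 CPM at 24 h and no read in DMSO (4.25 ± 0.83). Both IL-1 genes were higher in each 72 h library than in any other. NFKBIA, the feedback inhibitor of NF-kappaB (picked after its values were seen), had 205 and 195 CPM at 72 h, 56.6 and 55.4 CPM at 24 h and 27.8 and 30.1 CPM in DMSO (1.84 ± 0.13). TNF itself did not pass the test, with 2.15 and 2.08 CPM at 72 h and 1.05 and 2.33 CPM at 24 h. MOLM-13 had 9 of the 25 called higher and 1 lower, and THP-1 had 3 higher and 6 lower. The MV-4-11 change was called above the MOLM-13 change for 3 of 25 members and below for 2. These counts are near the shares over all genes tested, 13.1% above and 8.47% below. It was called above the THP-1 change for 12 and below for none, against 12.3% and 9.6% of all genes tested.

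Monocyte genes changed in a selective way. Of 37 tested macrophage and monocyte markers 14 were called higher and 2 lower, with a median log2 fold change of 0.47. Of the 14 called higher, 7 reached 5 CPM at 72 h. Of the 37, 7 had no read in the 4 libraries, C1QA, C1QB, C1QC, CD163 and MSR1 among them. MOLM-13 also had 14 called higher, with 4 lower (median 0.46), and THP-1 had 8 higher and 8 lower (median -0.19). The alarmin genes S100A8 and S100A9 (picked after their values were seen) had 46.0 and 51.9 CPM and 316 and 309 CPM at 72 h, against 5.82 and 5.89 CPM and 32.9 and 33.9 CPM at 24 h, with 72.9 and 69.5 CPM and 272 and 278 CPM in DMSO. CD14, the lipopolysaccharide co-receptor, had 3.28 and 3.70 CPM at 72 h and 0.58 and 0.87 CPM at 24 h (2.25 ± 0.32). ITGAM, the CD11b integrin, had 3.73 and 4.05 CPM at 72 h and 0.63 and 1.14 CPM at 24 h (2.105 ± 0.21). Both surface markers therefore rose, but stayed under 5 CPM. FCGR1A, the high-affinity Fc receptor, fell by 1.28 ± 0.12 on the log2 scale, to 7.47 and 7.90 CPM at 72 h, against 17.8 and 19.6 CPM at 24 h. CSF1R, the receptor that macrophages depend on, had 3 reads at 72 h and 11 at 24 h over the group, a ratio of 0.299 with an exact interval of 0.0535 to 1.13 (counting error only), and was not called.

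Of 25 integrin and adhesion genes 16 were called higher and 1 lower, ITGA4, with a log2 fold change of -1.47 ± 0.11. ICAM1 had 2.32 and 2.89 CPM at 72 h and 0.105 and 0.365 CPM at 24 h. Its log2 fold change was 3.39 ± 0.61, and 4.55 without the second 24 h library. SYNPO, an actin-binding protein, had 11.9 and 12.7 CPM at 72 h, 1.84 and 1.96 CPM at 24 h and 0.06 and 0.20 CPM in DMSO (2.69 ± 0.18). CTTN, the actin regulator cortactin, had 142 and 143 CPM at 72 h, 89.9 and 97.1 CPM at 24 h and 0.06 and 0.39 CPM in DMSO (0.60 ± 0.10). Most of the gap between CTTN with and without BRM014 was thus already present at 24 h.

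SPI1, which encodes PU.1 (chr11:47354860-47378576, minus strand), had 189 and 176 CPM at 72 h, 85.7 and 83.5 CPM at 24 h and 341 and 333 CPM in DMSO. It rose by 1.11 ± 0.12 on the log2 scale (adjusted p = 2.34e-07) and still lay below DMSO at 72 h. Its change exceeded that of MOLM-13 by 0.64 ± 0.16 (adjusted p = 0.00721) and that of THP-1 by 1.87 ± 0.17 (adjusted p = 7.84e-08). The 35 PU.1 target genes, a list taken over with results of these data known, did not move one way, with 13 called higher, 11 lower and a median of 0.12. LY86 and AIF1 fell, LY86 to 0 and 0.51 CPM at 72 h, against 2.88 and 2.55 CPM at 24 h, and AIF1 to 0.28 and 0.25 CPM at 72 h, against 2.25 and 1.32 CPM at 24 h. The fitted change of LY86, -3.32, moved to -2.41 without the first and to -8.66 without the second 72 h library. CSF2RA was called higher, but its 72 h libraries had 14.1 and 2.53 CPM against 0.84 and 0.96 CPM at 24 h, and the call was lost without the first 72 h library (adjusted p = 0.267).

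IRF8, a partner of PU.1, went the other way. It had 5.26 and 5.37 CPM at 72 h, 24.0 and 21.5 CPM at 24 h and 252 and 266 CPM in DMSO, and fell by 2.09 ± 0.12 on the log2 scale (adjusted p = 5.04e-11). MEF2C, a transcription factor of immature myeloid and lymphoid cells, had 140 and 133 CPM at 72 h, 319 and 308 CPM at 24 h and 246 and 258 CPM in DMSO (-1.20 ± 0.09). Over the 26 tested myeloid transcription factors 8 were called higher and 5 lower, and with 1 library left out 5 or 6 were called higher. CEBPB rose by 0.50 ± 0.15, a call lost without the second library of either group (adjusted p = 0.148 and 0.164), and CEBPA was not called, with 712 and 760 CPM at 72 h and 649 and 624 CPM at 24 h. Of 22 genes of the KMT2A fusion programme 11 were called lower and 1 higher, HOXA11, whose call was lost without the second library of either group (adjusted p = 0.140 and 0.0762). MEIS1, a homeobox cofactor of HOXA9, had 15.95 and 14.03 CPM at 72 h and 20.6 and 25.0 CPM at 24 h (-0.61 ± 0.16, adjusted p = 0.0946 without the second 24 h library and 0.0813 without the second 72 h library). HOXA9 was not called, with 9.33 and 11.0 CPM at 72 h and 13.5 and 12.4 CPM at 24 h.

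Genes of granule proteins changed in both directions. Among 22 tested granule genes 10 were called lower and 8 higher, with a median log2 fold change of -1.18, and without 1 of the 4 libraries 7 to 9 were called lower and 5 or 6 higher. PRG2, the major basic protein of eosinophil granules, had 2.55 and 3.65 CPM at 72 h, 70.2 and 74.6 CPM at 24 h and 190 and 205 CPM in DMSO, a log2 fold change of -4.53 ± 0.15 (adjusted p = 1.90e-14). CEACAM6, an adhesion molecule of granulocytes, had 0.51 and 0.15 CPM at 72 h, 8.02 and 8.90 CPM at 24 h and 206 and 213 CPM in DMSO. Its log2 fold change was -4.69 ± 0.36, and -5.74 without the first 72 h library or -4.04 without the second. MPO, the myeloperoxidase of azurophil granules, had 1.19 and 1.87 CPM at 72 h, 7.24 and 7.34 CPM at 24 h and 72.1 and 69.9 CPM in DMSO (-2.23 ± 0.27). In all 3 genes the levels were lowest at 72 h and highest in DMSO, with no overlap between groups. BPI and RNASE3 had the same order. The members called higher included LCN2, with 4.75 and 4.10 CPM at 72 h and no read at 24 h, which is at least 60.2-fold higher, and SERPINB1 (picked after its values were seen), with 487 and 490 CPM at 72 h, 164 and 165 CPM at 24 h and 368 and 384 CPM in DMSO.

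Other large falls were MAP4K1, a kinase of blood cells, with 0.34 and 0.46 CPM at 72 h, 8.44 and 8.30 CPM at 24 h and 44.8 and 46.4 CPM in DMSO (-4.36 ± 0.24), SYT11 (-4.33 ± 0.40), GPR85 (-3.14 ± 0.30), PLD4 (-2.72 ± 0.26) and HGF (-2.63 ± 0.28). For 3 genes on the same list the call rested on 1 library. PSMB3, a proteasome subunit, had 3.28 and 4.20 CPM at 72 h and 5.77 and 137 CPM at 24 h, and without the second 24 h library its log2 fold change was -0.62 (adjusted p = 0.6999) in place of -4.25. PRTN3, a serine protease of azurophil granules, had 0.68 and 0.51 CPM at 72 h and 2.15 and 25.8 CPM at 24 h (adjusted p = 0.183 without the second 24 h library). TSTA3, an enzyme of GDP-fucose synthesis, had 2.94 and 3.09 CPM at 72 h and 30.3 and 5.89 CPM at 24 h (adjusted p = 0.605 without the first 24 h library, and 0.178 and 0.176 without either 72 h library). Gaps of at least 4-fold between replicates were rare. They occurred in 11 of 10524 genes at 72 h and 15 of 10278 at 24 h that reached 5 CPM in a library.

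Lysosomal genes rose broadly. Of 40 tested members 34 were called higher and 1 lower, with a median log2 fold change of 1.03, and their summed level was 10660 CPM in both libraries at 72 h, 4772 and 4945 CPM at 24 h and 4102 and 4211 CPM in DMSO. ASAH1, the acid ceramidase, had 253 and 239 CPM at 72 h, 44.6 and 44.3 CPM at 24 h and 102 and 105 CPM in DMSO (2.47 ± 0.08). The member called lower was CTSS, a cathepsin of antigen-presenting cells, with 4.41 and 3.44 CPM at 72 h, 6.50 and 7.25 CPM at 24 h and 75.2 and 78.5 CPM in DMSO (-0.82 ± 0.16). GRN, the lysosomal protein progranulin, had 1617 and 1574 CPM at 72 h and 606 and 629 CPM at 24 h (1.37 ± 0.07). MOLM-13 also had 34 of 40 called higher, with 2 lower, and THP-1 had 21 higher and 2 lower. The MV-4-11 change was called above the MOLM-13 change for 8 members and below for 9, and above the THP-1 change for 26 and below for 1.

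Of 29 autophagy genes 22 were called higher and 1 lower, ATG5, whose call was lost without any of 3 libraries in turn (adjusted p between 0.0624 and 0.144). SQSTM1, the autophagy receptor p62, had 2383 and 2468 CPM at 72 h, 270 and 261 CPM at 24 h and 97.3 and 91.9 CPM in DMSO, a log2 fold change of 3.19 ± 0.08 (adjusted p = 2.09e-16). OPTN, another cargo receptor, had 96.8 and 92.5 CPM at 72 h and 20.1 and 19.8 CPM at 24 h (2.25 ± 0.15). FTH1, the ferritin heavy chain, had 3920 and 3979 CPM at 72 h, 970 and 977 CPM at 24 h and 441 and 464 CPM in DMSO (2.02 ± 0.10). HMOX1, haem oxygenase, had 62.0 and 57.9 CPM at 72 h, 10.6 and 15.8 CPM at 24 h and 0.62 and 0.83 CPM in DMSO (2.18 ± 0.17). FTH1 and HMOX1 both stood highest at 72 h and lowest in DMSO. The NRF2 list was mixed, with 9 of 24 called higher and 5 lower, and 7 higher and 3 or 4 lower without 1 of the 4 libraries. NQO1, a quinone reductase of that list, had 89.0 and 95.4 CPM at 72 h, 138 and 148 CPM at 24 h and 20.9 and 21.9 CPM in DMSO (-0.63 ± 0.08).

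Cell cycle genes fell together. All 40 DNA replication genes tested were called lower, with a median of -0.94, and so were 39 of 40 mitosis genes, with a median of -1.06. The summed level of the mitosis list was 2701 and 2547 CPM at 72 h, 5478 and 5090 CPM at 24 h and 4748 and 4624 CPM in DMSO, so the 24 h libraries were the highest and the 72 h libraries the lowest. UHRF1, which links DNA methylation to replication, had 97.9 and 89.7 CPM at 72 h, 319 and 333 CPM at 24 h and 318 and 316 CPM in DMSO (-1.80 ± 0.07). CDC20, an activator of the anaphase-promoting complex, had 68.5 and 63.3 CPM at 72 h, 191 and 200 CPM at 24 h and 151 and 154 CPM in DMSO (-1.57 ± 0.10). BUB1, a checkpoint kinase, had 77.7 and 73.7 CPM at 72 h, 209 and 210 CPM at 24 h and 122 CPM in both DMSO libraries (-1.47 ± 0.07). MKI67 had 334 and 316 CPM at 72 h, 560 and 554 CPM at 24 h and 376 and 368 CPM in DMSO (-0.78 ± 0.09). MOLM-13 had 40 of the replication genes and 37 of the mitosis genes called lower, and THP-1 38 and 39. The MV-4-11 change of the mitosis genes was called below the MOLM-13 change for 12 members and below the THP-1 change for 2, and above either for none. For the replication genes it was called above the MOLM-13 change for 21 of 40 and below for none, and above the THP-1 change for 1 and below for 17.

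The cell cycle homology region (CHR) was searched as TTTGAA on both strands, and 17 of 30 mitosis genes with a single window hold it (56.7%), against 8.66% of the tested genes with a window. CCAAT occurs in 23 of these 30 (76.7%). The windows of CDC20 (chr1:43358731-43358980) and NCAPG (chr4:17810729-17810978), both on the plus strand, are the called members with the largest falls among those that hold the CHR letters, shown in capitals on either strand. NCAPG, a condensin subunit picked after its values were seen, had 38.5 and 33.7 CPM at 72 h and 91.6 and 89.6 CPM at 24 h (-1.33 ± 0.09).
CDC20: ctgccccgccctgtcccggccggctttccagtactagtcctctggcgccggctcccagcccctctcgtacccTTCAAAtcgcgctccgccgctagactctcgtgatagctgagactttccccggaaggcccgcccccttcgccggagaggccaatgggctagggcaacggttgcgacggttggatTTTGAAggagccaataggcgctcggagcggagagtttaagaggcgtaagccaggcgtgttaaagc
NCAPG: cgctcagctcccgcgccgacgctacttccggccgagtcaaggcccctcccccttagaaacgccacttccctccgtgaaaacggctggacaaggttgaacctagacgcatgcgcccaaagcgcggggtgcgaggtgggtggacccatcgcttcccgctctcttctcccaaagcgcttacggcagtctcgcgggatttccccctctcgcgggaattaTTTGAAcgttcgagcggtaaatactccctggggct

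Genes of growth and protein synthesis fell as well. MYC had 37.1 and 40.8 CPM at 72 h, 126 and 139 CPM at 24 h and 1049 and 1080 CPM in DMSO, and fell by 1.77 ± 0.08 on the log2 scale (adjusted p = 1.79e-12). Of 32 MYC target and ribosome biogenesis genes 28 were called lower and 3 higher (ODC1, TFRC and NAMPT). Of 51 ribosomal protein genes 49 were called lower and none higher, with a median of -0.86. Their summed level was 30200 and 31510 CPM at 72 h, 57780 and 54180 CPM at 24 h and 85840 and 89430 CPM in DMSO. RPLP0, a stalk protein, had 697 and 720 CPM at 72 h, 1646 and 1638 CPM at 24 h and 2867 and 3041 CPM in DMSO (-1.21 ± 0.12). Ribosomal protein genes have many processed copies in the genome, so their single values are uncertain, but the sum moved far beyond the gap between replicates. Of 24 chaperone genes 18 were called lower and 1 higher, BAG3, and HSP90AB1 had 1389 and 1398 CPM at 72 h, 2592 and 2645 CPM at 24 h and 4206 and 4294 CPM in DMSO (-0.91 ± 0.06). For ribosomal proteins the MV-4-11 change was called below the THP-1 change for 23 of 51 and below the MOLM-13 change for 1. Histone genes of the replication-dependent kind went against the cell cycle lists, with 8 of 15 tested called higher and none lower, although 4 or 5 were called when 1 library was left out. HIST2H2BE had 22.9 and 23.3 CPM at 72 h, 6.82 and 6.98 CPM at 24 h and 4.20 and 3.57 CPM in DMSO (1.74 ± 0.21). The libraries were made from polyadenylated RNA, which most transcripts of these genes lack.

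Survival and signalling genes split. BCL2, the anti-apoptotic regulator, had 30.8 and 28.4 CPM at 72 h, 137 and 139 CPM at 24 h and 348 CPM in both DMSO libraries, and fell by 2.22 ± 0.08 on the log2 scale (adjusted p = 2.104e-14). MCL1, another anti-apoptotic member, had 1041 and 1005 CPM at 72 h, 770 and 789 CPM at 24 h and 213 and 214 CPM in DMSO (0.39 ± 0.06). The family thus held changes in both directions, with 8 of 18 called higher and 4 lower (5 to 7 higher without 1 library). CDKN1A, the p21 inhibitor of cyclin-dependent kinases, had 243 and 252 CPM at 72 h, 162 and 164 CPM at 24 h and 31.8 and 37.7 CPM in DMSO (0.60 ± 0.08). CDKN2B, which encodes p15, had 39.0 and 39.8 CPM at 72 h, 8.76 and 8.94 CPM at 24 h and 0.73 and 0.93 CPM in DMSO (2.15 ± 0.29). Both inhibitors were highest at 72 h. Of 18 STAT5 output genes 13 were called higher and 3 lower. PIM2, a survival kinase, had 126 and 117 CPM at 72 h and 41.6 and 41.2 CPM at 24 h (1.55 ± 0.10), and SOCS3, a feedback inhibitor, had 11.6 and 11.5 CPM at 72 h and 2.78 and 3.01 CPM at 24 h (1.99 ± 0.19). FLT3 itself fell by 0.53 ± 0.06, to 206 and 209 CPM at 72 h, against 295 and 303 CPM at 24 h and 171 and 180 CPM in DMSO. In glycolysis 8 of 24 were called higher and 11 lower. PKM, pyruvate kinase, had 5946 and 6402 CPM at 72 h, 2407 and 2462 CPM at 24 h and 1274 and 1288 CPM in DMSO (1.34 ± 0.08), while the lactate carrier SLC16A1 had 41.1 and 42.7 CPM at 72 h and 77.4 and 76.4 CPM at 24 h (-0.88 ± 0.08).

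The genes of the BRM014 targets were among those called lower, by smaller steps. SMARCA4 had 212 and 215 CPM at 72 h, 289 and 311 CPM at 24 h and 278 and 280 CPM in DMSO (-0.49 ± 0.07). SMARCA2 had 108 and 109 CPM at 72 h, 147 and 146 CPM at 24 h and 182 and 184 CPM in DMSO (-0.43 ± 0.06). Of 28 tested SWI/SNF subunit genes 12 were called lower and 1 higher, SMARCD3, the muscle- and heart-associated BAF60C subunit, which had 7.75 and 8.40 CPM at 72 h, 1.89 and 1.73 CPM at 24 h and 2.57 and 1.96 CPM in DMSO (2.16 ± 0.19). The median over the subunits was -0.19.

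Across all genes the direction was shared with the other lines in part. Of the 3119 genes called higher in MV-4-11, 1659 were called higher in MOLM-13 (53.2%, and 47.6% of the 3488 called there) and 1117 in THP-1 (35.8%, and 41.0% of the 2724 called there). Of the 2830 called lower, 1917 were called lower in MOLM-13 (67.7%, and 50.2% of 3818) and 1251 in THP-1 (44.2%, and 45.2% of 2766). Across the 12270 genes with a mean of at least 1 CPM the changes correlated at r = 0.454 with MOLM-13 and r = 0.294 with THP-1, as a description over genes that share libraries. The MV-4-11 change was called above the MOLM-13 change for 2208 genes and below for 1423 (8.47%), a split that became 1826 and 1772 with scaling by library size alone. It was called above the THP-1 change for 2059 genes and below for 1612 (9.60%), and with scaling by library size alone for 1846 above and 1885 below, so that the excess above did not hold there. Both differences were called for 963 genes above (5.73%) and 365 below (2.17%).

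Among genes with both differences called, those with fitted values farthest above the other lines were CD300A, LCNL1, LRRC25, SLAMF7 and CHI3L1. LCNL1 had no read at 24 h, so its fitted differences depend on the prior count and its place in this order is not secured. For CHI3L1 the change was positive in all lines, 9.61 ± 0.16 in MV-4-11, 5.01 ± 0.09 in MOLM-13 and 2.40 ± 0.08 in THP-1. Farthest below were MAP4K1, BPI, ZNF521, SYT11 and PRG2. ZNF521, a zinc finger factor of immature blood cells, had 14.6 and 13.6 CPM at 72 h, 70.4 and 75.3 CPM at 24 h and 72.0 and 76.9 CPM in DMSO. Its change of -2.37 ± 0.09 stood against -0.24 ± 0.08 in MOLM-13 and 0.46 ± 0.08 in THP-1. Genes called higher in MV-4-11 and lower in both other lines, with both differences called, numbered 129 (0.768%), and the reverse pattern held for 19 (0.113%). The named genes with that pattern are shown by line.

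**Figure D5:**
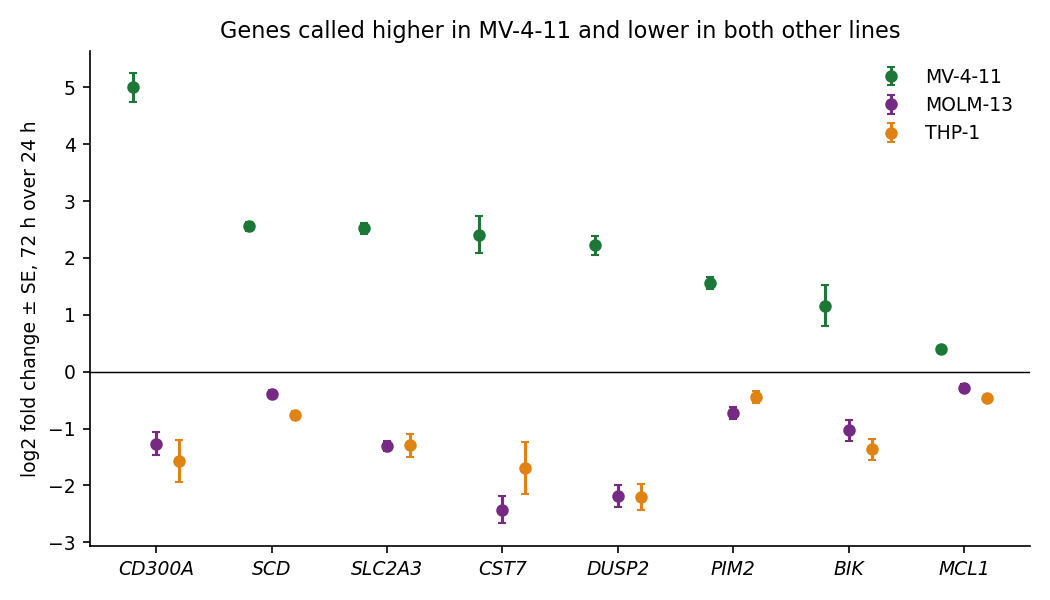
Log2 fold change of BRM014 72 h over 24 h with its standard error (y axis) for the 8 named genes called higher in MV-4-11 (green) and lower in both MOLM-13 (purple) and THP-1 (orange). CD300A has the widest gap, 4.997 in MV-4-11, -1.27 in MOLM-13 and -1.57 in THP-1, and MCL1 the narrowest, 0.39, -0.28 and -0.47.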

How the data were processed

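Per the labels, polyadenylated RNA of the cells was sequenced. The authors deposited unnormalized read counts by gene symbol in a file for every library. HISAT2 2.1.0, HTSeq, DESeq2 and hg38 are listed in the submitters' processing notes, without roles, annotation or strand setting, so genes that overlap or have near-identical copies are uncertain. Of 28063 symbols 25817 occur in GENCODE v29 (GRCh38), the source of coordinates. The 5 summary lines of each file were left out, and their no-feature entry held 12.0% to 19.2% of reads.

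With R 4.3.3, edgeR 4.0.16 was fitted to the 22 libraries as 11 groups, with filterByExpr at a minimum count of 10, TMM and quasi-likelihood F tests, adjusted by Benjamini-Hochberg over 16794 genes and called under 0.05. The standard error is the log2 fold change over the square root of F. The fit was tested on simulated data. Alternatives were DESeq2 1.42.0, other scalings, filters, subsets of libraries, a replicate block and leaving out each of the 4 libraries. A count of 0 allows up to 3 counts at 95% confidence, 0.143 to 0.175 CPM in these libraries, for counting error only. Lists and members were chosen with earlier results of these data known. Genes named were the 12 largest called rises and falls of at least 5 CPM without overlap, the 6 most abundant 2-fold changes each way, a panel of 20, up to 4 members of each of 38 lists, and the 5 largest line differences each way. Others are marked as picked after their values were seen, except members named only as markers, not called or below the threshold. A few genes are not reported here, and list counts still include them.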

Additional observations from a re-analysis of the deposited data

Results flagged for a closer look

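Each of these genes was called higher at 72 h than at 24 h of BRM014 in MV-4-11 and lower in both MOLM-13 and THP-1, and both differences between lines passed the edgeR quasi-likelihood test, so the sign of the change depends on the line. The log2 fold changes below are given for MV-4-11, with both other lines after them. CD300A, the myeloid inhibitory receptor, had 4.997 ± 0.25, against -1.27 ± 0.20 in MOLM-13 and -1.57 ± 0.36 in THP-1. SCD, the fatty acid desaturase, had 2.55 ± 0.07, against -0.39 and -0.76. SLC2A3, a glucose transporter, had 2.52 ± 0.09, against -1.31 and -1.30, with 312 CPM in both MV-4-11 libraries at 72 h and 52.2 and 56.7 CPM at 24 h. CST7, a cystatin of granules, had 2.40 ± 0.33, against -2.42 and -1.70, at 3.05 and 3.75 CPM at 72 h and 0.89 and 0.41 CPM at 24 h, and 3.03 without the first 24 h library. DUSP2, a phosphatase of ERK, had 2.22 ± 0.16, against -2.18 and -2.21. PIM2, the survival kinase, had 1.55 ± 0.10, against -0.73 and -0.44. BIK, a pro-apoptotic BCL2 relative, had 1.16 ± 0.36, against -1.03 and -1.37, at 1.24 and 0.96 CPM at 72 h and 0.47 and 0.50 CPM at 24 h. The BIK call in MV-4-11 was lost without either 24 h library (adjusted p = 0.0783 and 0.0705) and without the first 72 h library (adjusted p = 0.124). MCL1 had 0.39 ± 0.06, against -0.28 and -0.47.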

How the results depend on the processing

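The counts of genes called higher and lower, in MV-4-11 and in both line differences, stayed within 1.5 times under every alternative run. DESeq2 called 3272 higher and 2671 lower, the 4 MV-4-11 BRM014 libraries alone 3680 and 3580, and the fit without the PMA and DB2313 libraries 3463 and 3420. With 1 library left out, the line difference with MOLM-13 had 1727 to 1825 called above and 979 to 1174 below, and that with THP-1 1653 to 1718 and 1160 to 1283. Replicate numbers did not pair the libraries (correlation of deviations 0.023 between 72 h and 24 h), and a replicate block called 2992 and 2696. Of 156 named genes called, 20 lost the call without 1 library or more. No called change of a named gene turned its sign under these alternatives. Genes near 1 CPM rest on few reads, and groups of 2 limit every standard error.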
